A study of Rattus norvegicus with 24 samples.

Results

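The miR-17-92 cluster was examined in peripheral blood mononuclear cells (PBMC) of female Wistar rats through its 6 mature miRNAs rno-miR-17-5p, rno-miR-18a, rno-miR-19a, rno-miR-20a, rno-miR-19b and rno-miR-92a (rno- marks the rat and is left out from here on). They were picked by name and not by their values from the 677 rat miRNAs on the array, though earlier results of these data were known. All 6 were detected on 24 of 24 arrays and all 6 passed the filter that left 210 miRNAs for testing. The arrays fall into 12 groups of 2. Healthy animals (NOCIA, called NORA in the labels) were sampled before therapy or 1 hour or 34 days after its start. All other animals had collagen-induced arthritis (CIA, called RA in the labels), raised by immunisation with bovine type II collagen in Freund's adjuvant, and were sampled before any therapy or 1 hour or 34 days into treatment. Treatments were mechanical stimulation with a subcutaneous needle (MS, called AP in the labels), methotrexate (MTX) or saline as its placebo (PLA) by peritoneal injection, and no therapy but isoflurane in place of ether at blood sampling (ANE). PBMC were taken from a density gradient, and no age is given in the sources used here. Animals were killed once their blood was drawn, so each time point holds different animals. The labels do not say whether the 2 samples of a group came from 1 animal each, so a p-value measures the spread between samples, which may be partly technical.

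A polycistronic cluster is a run of miRNA hairpins cut from 1 long transcript, so its members share a promoter, while processing and decay can still set each mature level apart. miR-17-92 is switched on by MYC and E2F factors, is abundant in dividing lymphoid and myeloid precursors, and represses the pro-apoptotic factor Bim, which favours the survival and expansion of B and T cells. A relative on the X chromosome (miR-106a-363) and a further one inside the Mcm7 gene (miR-106b-25) carry miRNAs of the same seed families.

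The mature sequences are shown because the seed, the stretch that pairs with targets, sorts the members into families, and because some members are nearly the same molecule. Sequences are those of RefSeq (GRCr8 annotation) for the 6 members and 5 relatives on the array, 5′ to 3′, with the seed (bases 2 to 8) in capitals.
miR-17-5p: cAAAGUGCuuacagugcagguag
miR-20a: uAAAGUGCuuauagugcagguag
miR-20b-5p (X cluster): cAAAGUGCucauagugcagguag
miR-106b (miR-106b-25): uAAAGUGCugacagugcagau
miR-93 (miR-106b-25): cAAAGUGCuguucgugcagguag
miR-18a: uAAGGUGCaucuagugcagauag
miR-19a: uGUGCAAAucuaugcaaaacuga
miR-19b: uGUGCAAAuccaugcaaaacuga
miR-92a: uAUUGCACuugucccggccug
miR-25 (miR-106b-25): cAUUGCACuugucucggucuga
miR-363 (X cluster): aAUUGCACgguauccaucugu

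The 11 miRNAs hold 4 seeds. AAAGUGC is shared by miR-17-5p, miR-20a and 3 relatives, AAGGUGC belongs to miR-18a, GUGCAAA to miR-19a and miR-19b, and AUUGCAC to miR-92a, miR-25 and miR-363. Counting from 1 at the 5′ end, miR-17-5p and miR-20a differ by C1U and C12U (21 of 23 bases match), miR-19a and miR-19b by U11C alone, and miR-20a and miR-20b-5p by U1C and U10C. Whether the probes keep such near copies apart was not tested.

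In GRCr8 the 6 hairpins Mir17, Mir18a, Mir19a, Mir20a, Mir19b1 and Mir92a1 lie in 785 bases at chr15:98587848-98588632 on the plus strand. The X cluster holds 5 hairpins in 871 bases at chrX:137342777-137343647 on the minus strand. The gene table used here places no other gene over either cluster, and the nearest protein-coding genes are Gpc5, 25867 bases from the chromosome 15 cluster, and LOC120099255, 27229 bases from the X cluster. miR-17-5p, miR-19b and miR-92a are listed at both places, so their arrays' values can hold RNA from either. miR-18a, miR-19a and miR-20a are listed on chromosome 15 alone.

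**Figure D1:**
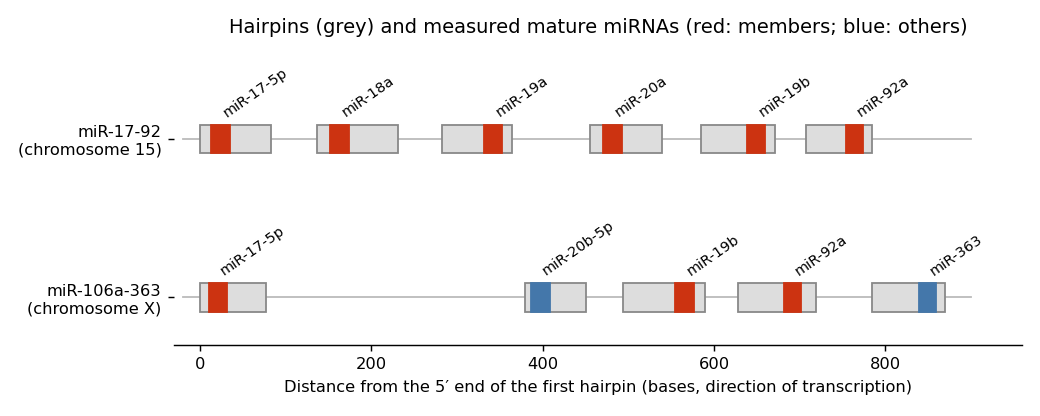
Hairpins (grey boxes) and mature miRNAs (red for the 6 members, blue for others) of the 2 clusters, by distance in bases from the first hairpin in the direction of transcription. Red boxes for miR-17-5p, miR-19b and miR-92a appear on both lines, those for miR-18a, miR-19a and miR-20a on the upper line alone.

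Between 145 and 207 miRNAs were detected per array, and the summed intensity of the detected ones ran from 137544 to 519917. The arrays lay on 3 slides, each holding 4 groups, and each group on 1 slide, so that slide and group cannot be told apart in 9 of the 20 comparisons made, while the other 11 were made within a slide. Marker miRNAs of blood leukocytes were present on every array. miR-142-3p, present throughout the white blood cells, stayed between 13.15 and 13.88 on the log2 scale over all 24 arrays. Erythroid miR-451 was detected on every array as well and ranged from 11.15 to 15.16. Levels are log2 of the miRNA's total intensity after scaling of the arrays to a common 75th percentile, and differences are on that log2 scale. The scaling factor was lowest on MS at 1 hour replicate 1 (0.452). It was 0.456 on MS at 34 days replicate 1, where the median over all arrays was 1.06. A call is an adjusted p under 0.05 in limma, adjusted by Benjamini-Hochberg over the 210 miRNAs.

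Over the 24 arrays the same array was highest for all 6 members, while how closely they moved together differed between pairs, as given below. miR-17-5p, whose family curbs cell cycle inhibitors, ran from 10.27 through a median of 10.67 to 11.51. miR-18a ran from 8.24 through 8.80 to 9.81. miR-19a ran from 8.93 through 9.62 to 11.03 and so had the widest range (2.10). miR-20a ran from 11.54 through 11.93 to 12.81. miR-19b ran from 11.69 through 12.15 to 12.85. miR-92a, the member known for its action in endothelium, had the narrowest range (0.95), from 11.86 through 12.12 to 12.81. The highest array of each of the 6 was MS at 34 days replicate 1, and the lowest was MTX at 1 hour replicate 2 for 5 of them and MTX at 34 days replicate 2 for miR-92a.

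By group mean, MS at 34 days stood first of 12 for all 6 members, with means of 11.25 ± 0.36 for miR-17-5p, 9.48 ± 0.46 for miR-18a, 10.49 ± 0.77 for miR-19a, 12.59 ± 0.31 for miR-20a, 12.61 ± 0.33 for miR-19b and 12.54 ± 0.38 for miR-92a (log2, SD, n = 2). ANE at 1 hour stood second for miR-17-5p, miR-18a, miR-20a, miR-19b and miR-92a, and MS at 1 hour for miR-19a. The last place differed between members. It was held by CIA before therapy for miR-17-5p (10.39 ± 0.04), by MTX at 1 hour for miR-18a (8.56 ± 0.45) and miR-19a (9.18 ± 0.36), by PLA at 34 days for miR-20a (11.76 ± 0.07), by NOCIA before therapy for miR-19b (11.85 ± 0.07) and by MTX at 34 days for miR-92a (12.02 ± 0.24). Most neighbours in these orders did not differ beyond their spread. Of the 11 steps between neighbouring groups, the 2 arrays of each group were clear of each other at 3 steps for miR-20a, at 1 each for miR-17-5p and miR-92a, and at 0 for miR-18a, miR-19a and miR-19b. For miR-20a those steps included the first, from MS at 34 days to ANE at 1 hour (12.25 ± 0.03).

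**Figure D2:**
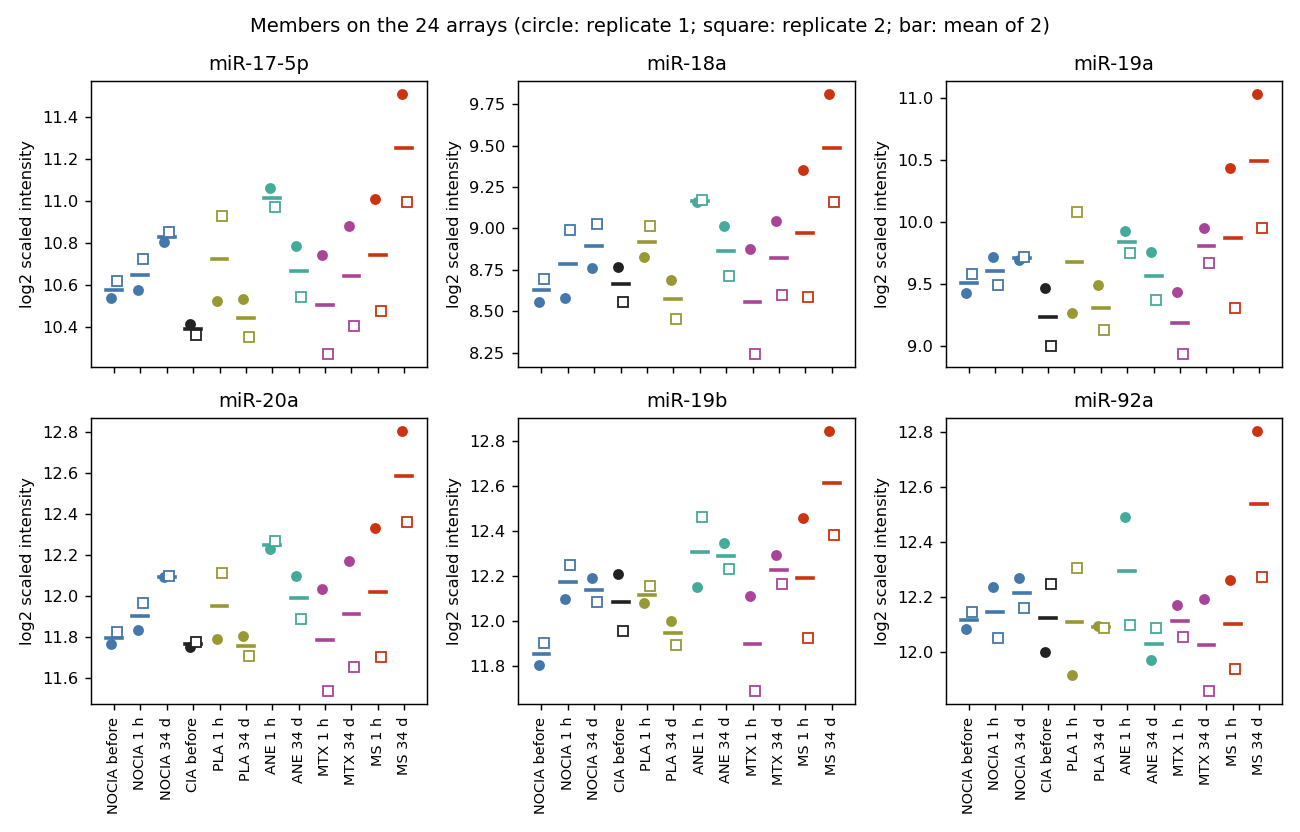
log2 scaled intensity (y axis) of each member on the 24 arrays by group (x axis; circle replicate 1, square replicate 2, bar the mean of 2). In all 6 panels the highest point is MS at 34 days replicate 1, and the 2 arrays of MS at 1 hour lie far apart, for miR-19a at 10.44 and 9.31.

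MS at 34 days against CIA before therapy asked how the arthritic animals stood at the end of stimulation against untreated arthritis. Of the 6 members 3 rose past the test, miR-17-5p by 1.82-fold, miR-19a by 2.39-fold and miR-20a by 1.77-fold, and for all 6 both MS arrays lay above both CIA arrays. The comparison was made across slides.

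miR-17-5p measured 11.51 and 10.99 in MS at 34 days and 10.42 and 10.36 in CIA. Both MS arrays lay above, replicate 1 by far, and the difference was 0.86 (SE 0.23, limma adjusted p 0.0383). miR-20a, its close sequence relative, measured 12.81 and 12.36 in MS and 11.75 and 11.78 in CIA, a difference of 0.82 (SE 0.23, limma adjusted p 0.0383). miR-19a measured 11.03 and 9.95 in MS and 9.47 and 8.997 in CIA. The MS replicates were more than 1 log2 unit apart, yet the lower one stayed above CIA, and the difference was 1.26 (SE 0.39, limma adjusted p 0.0407).

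The other 3 members did not pass. miR-18a measured 9.81 and 9.16 in MS against 8.77 and 8.56 in CIA, a difference of 0.82 (SE 0.29, limma adjusted p 0.0526). miR-19b measured 12.85 and 12.38 against 12.21 and 11.95, a difference of 0.53 (SE 0.20, limma adjusted p 0.0604). miR-92a measured 12.81 and 12.27 against 11.999 and 12.25. Its lower MS array was thus only just above the higher CIA array, and the difference of 0.42 (SE 0.21, limma adjusted p 0.123) was the smallest of the 6.

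So 3 of 6 members were called higher where 15.7% of the 210 miRNAs were, and 5 of 6 had an unadjusted p under 0.05 where 37.1% were higher at that level. The groups did not overlap for 6 of 6 members, against 43.3% of all tested miRNAs that were higher without overlap. The members' median difference was 0.82 and that of all 210 miRNAs 0.16. Each member has 2 probes on the array, and all 12 probes were higher in MS, by 0.37 to 1.29.

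The count of 3 rested on single arrays and on the scaling. It was 6 without MS at 34 days replicate 2 (where 39% of the 210 miRNAs were called higher), 0 without MS at 34 days replicate 1, and 0 without either of the CIA arrays (replicate 1 or 2). Such a fit leaves 1 group with a single array, which is assumed to vary like the other groups. In the last 3 fits 0 of the 210 miRNAs were called higher, which takes in each relative, passenger strand and marker named below. The members' median difference was 0.55 without MS replicate 1 and 1.08 without MS replicate 2. With no scaling 6 members were called, as were 61% of all 210 miRNAs, with a median of 2.01 beside 1.32 for all. With scaling to the array median, the 75th percentile of all 677 miRNAs, miRNAs other than the members, or by quantiles, 0 members were called. The members' medians were 0.75, 0.62, 1.02 and 0.34, and 0% of the 210 miRNAs were called higher under each. All 6 differences kept their direction under these scalings, except that miR-92a turned to −0.21 under quantile normalization.

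**Figure D3:**
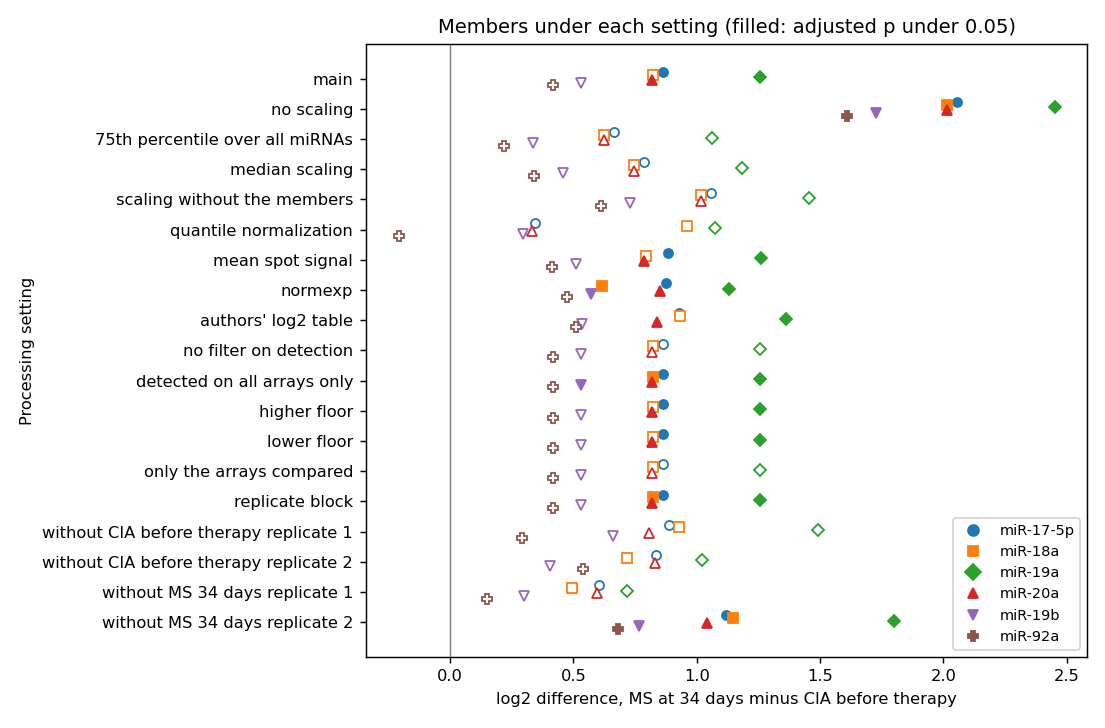
log2 difference of each member (x axis) between MS at 34 days and CIA before therapy under each processing setting (y axis), filled where the adjusted p was under 0.05. All points lie right of 0 but that of miR-92a under quantile normalization (−0.21), and leaving out 1 or the other MS array moves the count of filled points from 0 to 6.

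Against PLA at the same time, which lay on the same slide, the differences were of like size but 0 of 6 members were called by limma, where 0.0% of the 210 miRNAs were called in either direction. miR-17-5p measured 10.53 and 10.35 in PLA, and MS was higher by 0.81 (SE 0.23, limma adjusted p 0.0622). miR-19a measured 9.49 and 9.13, and MS was higher by 1.18 (SE 0.39, limma adjusted p 0.0622). miR-20a measured 11.81 and 11.71, and MS was higher by 0.83 (SE 0.23, limma adjusted p 0.0622). These PLA values lay near those of CIA before therapy, and below both MS arrays. miR-18a (8.69 and 8.45 in PLA) was 0.91 higher in MS, miR-19b (11.997 and 11.89) 0.67 higher and miR-92a (12.09 and 12.09) 0.45 higher, the last with a 95% interval from 0.01 to 0.89. Unadjusted p was under 0.05 for 6 of 6 members, where 32.9% of all miRNAs were higher at that level, and the groups did not overlap for 6 of 6, where 43.3% of all were higher without overlap. The count called became 6 without MS at 34 days replicate 2 (37.1% of all were then called higher, with the lone MS array assumed to vary like other groups), and the differences were 0.18 to 0.64 without MS replicate 1. As both comparisons share the MS arrays, they are not independent.

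MTX at 34 days, also on that slide, was below MS by mean for all 6 members and above PLA for 5, miR-92a being lower than in PLA (12.19 and 11.86 in MTX). miR-17-5p measured 10.88 and 10.41 there, miR-19a 9.95 and 9.67, and miR-20a 12.17 and 11.65, and for miR-17-5p and miR-20a these overlapped the PLA arrays. For miR-19a the higher MTX array equalled the lower MS array to within rounding, at 9.95. MS exceeded MTX by 0.39 (miR-19b) to 0.68 (miR-19a), with 0 of 6 called by limma (0.0% of all miRNAs), adjusted p from 0.259 to 0.343, and 4 of 6 at an unadjusted p under 0.05 (16.2% of all were higher at that level). The groups did not overlap for 6 of 6 members, against 23.8% of all higher without overlap. PLA at 34 days against CIA before therapy gave member differences of −0.14 to 0.08, 0 of 6 called by limma (0.0% of all) and 0 at an unadjusted p under 0.05 (1.9% of all).

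**Figure D4:**
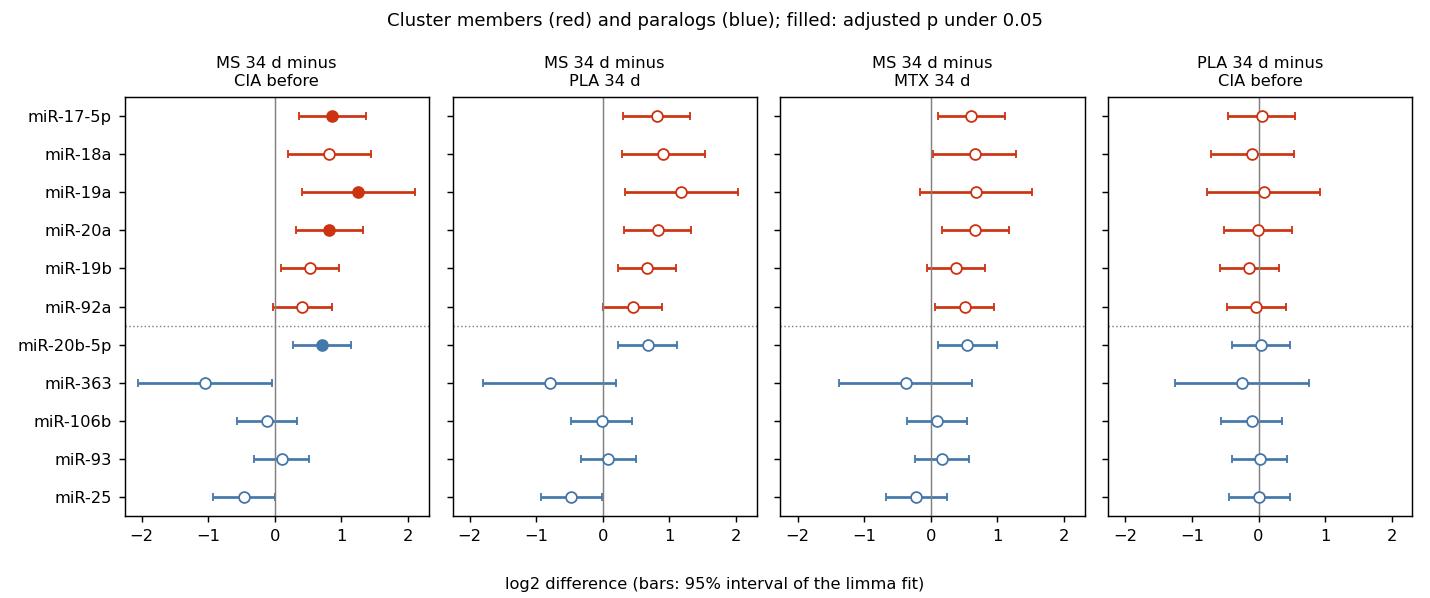
log2 differences (x axis) of the 6 members (red) and 5 relatives (blue) in 4 comparisons, with 95% intervals of the limma fit, filled where the adjusted p was under 0.05. In the first panel miR-17-5p, miR-19a, miR-20a and miR-20b-5p are filled, and in the last, PLA against CIA, the members lie within −0.14 and 0.08.

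The rise in MS was then set against the change of healthy animals over the same 34 days. MS at 34 days lay on another slide than CIA before therapy, while both NOCIA groups shared 1 slide. The MS change was thus made across slides and the NOCIA change within 1, so slide does not cancel between them. In NOCIA all 6 members were higher at 34 days than before therapy without overlap, where 47.1% of all miRNAs were, but by 0.10 to 0.30 only, with 0 called by limma (0.476% of all were called higher) and 0 at an unadjusted p under 0.05 (6.67% of all). miR-20a, for example, measured 12.09 and 12.10 at 34 days and 11.77 and 11.83 before. The MS change minus the NOCIA change was 0.61 for miR-17-5p, 1.06 for miR-19a and 0.52 for miR-20a, from 0.25 to 1.06 over the 6. This test of the difference called 0 of 6 members (0.0% of all were called higher), with adjusted p from 0.465 to 0.614 and an interval for miR-19a from −0.15 to 2.26.

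Arthritis itself, as CIA against NOCIA before therapy, gave member differences of −0.27 (miR-19a) to 0.23 (miR-19b), with 0 of 6 called by limma (0.952% of all in either direction) and 0 at an unadjusted p under 0.05 (7.62% of all). miR-19b measured 12.21 and 11.95 in CIA and 11.80 and 11.90 in NOCIA, which do not overlap (27.6% of all were higher without overlap), and miR-17-5p was lower without overlap (31.0% of all), with 10.54 and 10.62 in NOCIA. The widest 95% interval was that of miR-19a (−1.12 to 0.58), and that of miR-19b was −0.21 to 0.67.

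ANE at 1 hour, the second highest group, was compared with CIA across slides. miR-17-5p measured 11.06 and 10.97, miR-18a 9.16 and 9.17, and miR-20a 12.23 and 12.27, all above both CIA arrays with close replicates. miR-17-5p was 0.63 higher than in CIA (SE 0.23, limma adjusted p 0.263), and it was the only 1 of 6 members with an unadjusted p under 0.05, where 13.8% of all miRNAs were higher at that level. The groups did not overlap for 4 of 6 members (36.2% of all were higher without overlap), and 0 of 6 were called (0.476% of all were called higher).

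At 1 hour 0 of 6 members were called by limma in MS against CIA (0.0% of all miRNAs in either direction), PLA (0.952%) or NOCIA (1.43%). None of the 6 had an unadjusted p under 0.05, where 12.9%, 9.52% and 11.9% of all miRNAs did. Its replicates differed throughout. miR-17-5p measured 11.01 and 10.48, miR-18a 9.35 and 8.59, and miR-19a 10.44 and 9.31, with replicate 1 the higher each time. In all, 19 of the 20 comparisons had 0 members called by limma, and in 16 no member had an unadjusted p under 0.05, with member differences from −0.49 to 1.06.

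How alike the members moved was measured on each array, free of the scaling, as the difference between 2 members after each was centred on its mean over 24 arrays. Over the 15 pairs the SD of this difference had a median of 0.19. It was lowest for miR-17-5p and miR-20a (0.058), the pair that shares a seed and 21 of 23 bases, and highest for miR-19a and miR-92a (0.34). That last difference ran from −0.74 on CIA before therapy replicate 2 to 0.74 on MS at 34 days replicate 1. miR-19a and miR-19b, 1 base apart, had an SD of 0.28, and miR-19a exceeded miR-19b by 0.69 on MS at 34 days replicate 1 and by 0.07 on replicate 2, on this centred scale, against −0.24 and −0.45 on the CIA arrays. miR-19b can come from both chromosomes and miR-19a from chromosome 15 alone. The same holds for miR-17-5p (both) and miR-20a (chromosome 15 alone), the pair with the lowest SD. The unequal change of miR-19a and miR-19b was not tested, nor was any part of the locus in it.

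Of the 126 other miRNAs detected on all 24 arrays, the 5 whose centred profile was most like the members' mean were miR-20b-5p (SD of the difference 0.063), miR-148b-3p (0.089), miR-324-5p (0.11), miR-425 (0.11) and miR-103 (0.12). The median over the 126 was 0.34, and the members' mean profile itself had an SD of 0.28. The arrays share slides and depth, so these are descriptions.

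Relatives outside the cluster did not all follow it. miR-20b-5p measured 11.64 and 11.22 in MS at 34 days and 10.72 and 10.71 in CIA, and it rose by 0.71 (SE 0.20, limma adjusted p 0.0383). miR-363, from the same X transcript, measured 6.39 and 7.30 against 7.85 and 7.93, a difference of −1.05 (SE 0.47, limma adjusted p 0.0922). The centred difference of miR-20b-5p and miR-363 had an SD of 0.68 over the arrays, while that of miR-20b-5p and miR-20a was 0.060. Thus miR-20b-5p varied nearer to miR-20a than to miR-363, though whether the probes keep miR-20b-5p and miR-20a apart was not tested. Against miR-17-5p, miR-19b and miR-92a, which are listed in the X cluster as well, the SD was 0.073, 0.12 and 0.16. These values therefore do not set chromosome 15 apart from the X cluster.

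The miR-106b-25 members have the seeds of miR-17-5p and miR-92a, and 0 of 3 were called. Of the 210 miRNAs 15.7% were called higher and 7 miRNAs lower, so a count of 0 among 3 is not set apart from that share. miR-106b measured 10.40 and 10.29 in MS and 10.71 and 10.22 in CIA, with a difference of −0.12 (95% interval −0.57 to 0.34). miR-93 differed by 0.10 (95% interval −0.31 to 0.51). miR-25 measured 9.78 and 9.77 against 10.36 and 10.10, a difference of −0.46 (SE 0.22, limma adjusted p 0.106). Within the AUUGCAC seed the differences were therefore 0.42 for miR-92a, −0.46 for miR-25 and −1.05 for miR-363, and that contrast was not tested. Of the 6 listed relatives on the array 5 were tested and 1 was called higher, near the 15.7% of all miRNAs. miR-92b was detected on 1 array and not tested.

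Passenger strands, the other arm of each hairpin, can tell the 2 loci apart where their sequences differ and they are detected. miR-17-1-3p, from the chromosome 15 hairpin, was detected on 24 of 24 arrays, and miR-17-2-3p, from the X hairpin Mir106a, on 0. miR-19b-1*, from chromosome 15, was detected on 13 arrays and miR-19b-2*, from the X cluster, on 0. Yet miR-20b-5p and miR-363 of the X cluster were detected on 24 of 24 arrays, so these absences do not show that locus to be silent. In MS at 34 days miR-17-1-3p measured 5.09 and 4.49 against 3.82 and 3.87 in CIA, and it rose by 0.94 (SE 0.25, limma adjusted p 0.0383). miR-20a* measured 5.26 and 4.86 against 4.21 and 4.12, and it rose by 0.90 (SE 0.27, limma adjusted p 0.0405). For both strands the MS and CIA arrays did not overlap, where 43.3% of all tested miRNAs were higher without overlap. Both strands were faint. Over the arrays miR-17-1-3p ran from 3.63 to 5.09 and miR-20a* from 3.93 to 5.26, where the floor was 2.53. miR-19b-1* differed by 0.37 (SE 0.51, limma adjusted p 0.596), and miR-18a*, miR-19a*, miR-92a-1* and miR-92a-2* were detected on 0 arrays. miR-17-1-3p, miR-17-2-3p and miR-19b-2* were chosen after the files were read.

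**Figure D5:**
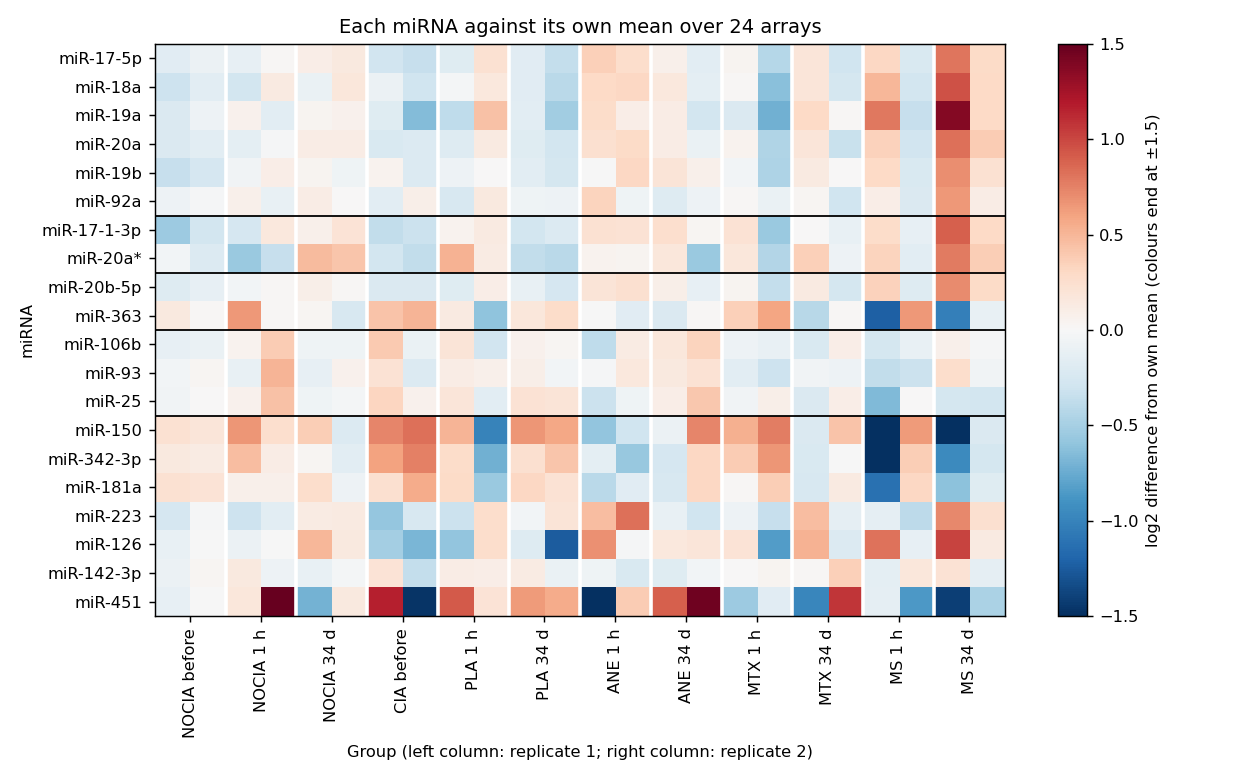
log2 difference of each miRNA (rows: members, passenger strands, X cluster, miR-106b-25, blood cell markers) from its own mean over the 24 arrays (columns, 2 per group), red above and blue below. MS at 34 days replicate 1 is red for all 6 members and blue for miR-150, which measured 9.55 there, and MS at 1 hour replicate 1 shows the same pair of colours.

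Markers of blood cell types did not all move the same way as the members. Among lymphocyte miRNAs, miR-150 differed by −2.43, miR-342-3p by −1.29 and miR-181a by −0.80 in MS at 34 days against CIA. Their limma adjusted p was 0.0549, 0.0549 and 0.111. The same difference was 0.89 for miR-223 and 1.17 for miR-126, and between −0.79 and 0.23 for the erythroid and leukocyte-wide miRNAs. In a bulk sample fewer cells of a type and less RNA per cell cannot be told apart. miR-150, the main lymphocyte miRNA, measured 9.55 and 12.43 in MS at 34 days, 10.26 and 13.29 in MS at 1 hour, 13.38 and 13.47 in CIA and 13.31 and 13.23 in PLA at 34 days. It was lowest on the 2 arrays where the members' mean was highest, MS at 34 days replicate 1 (0.88 above the members' overall mean) and MS at 1 hour replicate 1 (0.39). The 3 lymphocyte miRNAs (miR-150, miR-342-3p, miR-181a) together had a scaled intensity of 2041 and 7463 in MS at 34 days, 13781 and 15011 in CIA, 12869 and 12459 in PLA at 34 days, and 6185 and 6934 in ANE at 1 hour. MS at 34 days and ANE at 1 hour were the groups highest in most members. All their arrays lay below both CIA before therapy and PLA at 34 days in these markers. In PLA at 1 hour the sum was 11892 and 4655. Its lower array lay below both ANE arrays and below MS at 34 days replicate 2. Other groups held low arrays too. The sum was 7426 and 10989 in MTX at 34 days, and 10759 and 7636 in NOCIA at 34 days. It was 7939 and 13468 in ANE at 34 days, and 2103 and 12908 in MS at 1 hour. A low sum was thus not particular to the groups highest in the members.

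The myeloid miR-223 measured 13.57 and 13.08 in MS at 34 days and 12.26 and 12.60 in CIA, and it rose by 0.89 (SE 0.25, limma adjusted p 0.0383). In ANE at 1 hour it measured 13.31 and 13.67. It also lay above both CIA arrays in PLA at 34 days (12.80 and 13.04), where the members stayed near CIA. The same held in MTX at 34 days (13.32 and 12.71). The differences from CIA were 0.49 in PLA and 0.58 in MTX, neither called by limma. The platelet and endothelial miR-126 measured 7.58 and 6.71 in MS at 34 days and 6.07 and 5.89 in CIA, while miR-126* was detected on 2 of 24 arrays. The 2 erythroid miRNAs summed to 4663 and 8725 in MS at 34 days and to 27062 and 4306 in CIA, and the 2 leukocyte-wide ones to 14559 and 11502 and to 14776 and 9857. All 8 lymphocyte, myeloid, erythroid and leukocyte markers were detected on all 24 arrays, and the liver miR-122 on 9. The part of cell makeup in the members' differences was not tested.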

How the data were processed

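Total RNA of PBMC was hybridised to one-colour Agilent rat miRNA arrays and, per the file headers, read with Feature Extraction 10.7.3.1. The deposited scanner files hold background-corrected linear intensity values, not normalised between arrays, with a total signal and a detection call per miRNA. Undetected miRNAs carry the listed error (12046 of 12046 values). The authors also deposited processed values on a log2 scale, which the notes tie to RMA. Their centring is unknown, their column medians were 2.89 to 2.91, and each of the 24 columns matched its own array best.

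Totals were scaled to an equal 75th percentile over the 132 miRNAs detected on all arrays (factors 0.452 to 1.42), floored at 5.76 (2.53 log2) and log2-transformed. miRNAs found on 3 or more arrays (210) were fitted with limma 3.58.1 in R 4.3.3 on 12 group means (12 residual degrees of freedom, two-sided, Benjamini-Hochberg), and the fit was tested on simulated data. Groups come from the labels. For NOCIA at 34 days 1 label line names 1 hour, while title and another line name 34 days, which was used. Mature names without an arm were matched to the dominant RefSeq arm, 11 of 11, with GRCr8 positions. The array header names rn4 and its files give no positions. miR-18b and miR-106a have no entry under those names.

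The members, lists, tests and alternatives were chosen with earlier results of these data known. Named were the 6 members, their relatives and passenger strands, markers, and the 5 miRNAs most like the members. Alternatives were other scalings, the mean spot signal (from spots' processed signals), normexp (offset 50) on median signals, the authors' table, filters, floors, a fit of the compared arrays, a replicate block, the study's threshold (fold over 2, unadjusted p under 0.05) and leaving out each array. The number of arrays limits the precision.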

Additional observations from a re-analysis of the deposited data

How the results depend on the processing

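Of the 20 comparisons, 18 kept their count of members called under every alternative and array left out. For MS at 34 days against CIA before therapy 3 of 6 members were called. The count was 6 with no scaling (61% of all called higher) and 5 with normexp (11%). Under normexp the median over all tested miRNAs was −0.68, with 114 called lower and 23 higher. The count was 5 when only miRNAs detected on all arrays were tested (40.2%), and 1 at the study's threshold. With the 75th percentile of all miRNAs, median scaling, scaling without the members or quantile normalization, 0% of all were called higher. The same held with no filter on detection and with only the arrays compared. In all of these settings the count of members was 0. It was 0 to 6 when 1 array was left out. The mean spot signal (15.7% of all called higher), the authors' table (27.6%), the higher floor (19%) and the lower floor (14.8%) gave 3. Against PLA at 34 days, where 0 were called, the count was 6 with no scaling (58.1% of all called higher), 5 with normexp (10%), 5 with no filter (9.9%), 5 with miRNAs detected on all arrays (24.2%), 1 at the study's threshold, and 0 to 6 when 1 array was left out. Under quantile normalization miR-92a reversed, to −0.21 against CIA (adjusted p 0.386) and −0.10 against PLA (adjusted p 0.688). The cause was not tested. Values of single members were followed only in MS at 34 days against CIA before therapy and against PLA and MTX at 34 days. Of these values, 272 kept direction and side of the threshold, 39 passed it newly, 29 no longer passed and 2 reversed. The replicate numbers do not pair the samples (correlations between groups' deviations from −0.77 to 0.84 over 66 pairs of groups, 26 above 0.1). With the replicate number as a block 4 members were called against CIA (24.3% of all called higher) and 0 against PLA (0%).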
